A study of Mus musculus with 8 samples.

Results

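The comparison described here sets untreated pancreatic islets of 2 NFATc2 knockout (KO) mice against untreated islets of 2 wild-type (WT) mice, which are 4 of the 8 samples of the study. The samples were chosen by label, as the untreated culture of each KO and each WT mouse. KO mice carried a tamoxifen-induced deletion of NFATc2 in insulin-expressing cells, made in adult animals, and WT mice had received tamoxifen without a knockout resulting. All samples bear the strain label Agouti/C57BL6, while the growth protocol speaks of C57BL/6 mice from a commercial breeder and of NFATc2βKO transgenic mice. Neither the deleted exons, nor the promoter driving the recombinase, nor the age of the mice stands in the sources used here. Islets mix several cell types, and only cells that express insulin were targeted. Islets were kept overnight in 5.5 mM glucose and then cultured for 2 h without additions. The other culture of the same 4 mice received IL1β (5 ng/mL), TNFα (10 ng/mL) and IFNγ (50 ng/mL) in 11 mM glucose for 2 h and is used below as a second measurement of the same animals. RNA was sequenced from each culture. In the files the genotypes are called KO and Mut, and Mut was read as WT because no other genotype is left.

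NFATc2 is a transcription factor that rests phosphorylated in the cytoplasm. A rise in calcium activates the phosphatase calcineurin, which strips the phosphates, and NFAT then enters the nucleus and binds DNA, usually beside other factors. In beta cells, the insulin-producing cells of the islet, calcineurin and NFAT are known for their part in insulin gene expression and in proliferation. In lymphocytes the same route drives cytokine genes after antigen stimulation.

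A gene was called when the false discovery rate (FDR) of the authors' Wald test was below 0.05. By that rule 67 of 16333 genes differed, which is 0.41% of those tested: 58 were higher in KO islets (0.355%) and 9 were lower (0.0551%). The median log2 fold change of KO over WT over all genes was -0.004, and 798 genes had an unadjusted p below 0.05. The tables hold group means and no library columns, but whole reads of each library could be read back from the digits for 16319 genes. These came to 21917600 and 27063111 reads in the untreated KO libraries and 14679059 and 17289350 reads in the WT libraries, so the KO libraries were the deeper ones. Whether this depth difference had a part in the calls was not tested. Reads of 4 Y-linked genes showed 1 female and 1 male library in each group, and values below are given in that order. The first principal component of the 4 untreated libraries (47.9% of the variance) had both KO libraries on one side and both WT libraries on the other, and the second (40.6%) set females against males. With 2 mice in a group, an exact permutation test cannot give a two-sided p below 0.33, so no such test was made for single genes.

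The recovered reads of these 4 libraries were also fitted with limma. It called 0 genes at an adjusted p under 0.05, the smallest being 0.119, while 1132 genes had an unadjusted p below 0.05. Of the 67 genes called by the authors, 66 were among those 1132, and all 67 had the same direction. With sex as a covariate limma called 691 genes, 487 higher and 204 lower, including 66 of the 67, on 1 residual degree of freedom per gene. Both KO values lay above both WT values in 57 of the 58 genes called higher, and below them in 9 of 9 called lower. Over all genes with recovered reads these shares were 18.6% and 18.3%. The calls were made on these same libraries, so the shared direction, the low p-values and the separation add no independent support for them.

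Nfatc2, the deleted gene (ENSMUSG00000027544, chromosome 2, 168476410 to 168601657, minus strand, GRCm38), was read in every library. It stood at 1167 and 842 in KO and 1557 and 1270 in WT libraries, in normalized counts, which are reads divided by the size factor of the library. Both KO values were below both WT values, and the nearest pair lay close together. The difference did not pass the authors' test (log2 fold change -0.49 with an SE of 0.23 and an FDR of 0.903 in the authors' deposited table). It did not pass the limma fit of the 4 untreated libraries either (adjusted p 0.719). The limma fit with sex as a covariate, on 1 residual degree of freedom, gave an adjusted p of 0.016. Reads from exons that remain, and from islet cells outside the deletion, are counted too, so this is a limited check of the labels. Of 22 measured genes of calcineurin and NFAT signalling, 0 were called higher and 0 lower, and their median log2 fold change was 0.047 (0.029 without the KO male to 0.075 without the KO female library) against -0.004 for all genes. Rcan3, a regulator of calcineurin, stood at 6078 and 6431 in KO and 7100 and 6752 in WT libraries (log2 fold change -0.15 with an SE of 0.11 and an FDR of 1.00 in the authors' deposited table).

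Genes of mitosis, the separation of duplicated chromosomes into daughter cells, were mostly higher in KO islets. Of 44 measured mitosis genes 7 rose and 0 fell, against 0.355% and 0.0551% of all genes. Those that rose were Mki67, Top2a, Kif11, Knl1, Cenpf, Tpx2 and Kif15. The median log2 fold change was 1.12, and 43 of the 44 were positive. Summed over the 44, the level was 0.05585% and 0.05471% of the reads in KO and 0.03667% and 0.04253% in WT libraries. In 39 both KO libraries were above both WT libraries, against 18.6% of all genes. The tables hold no gene with a mean under 23.2 over all 8 libraries, and 15 of the 44 lay under that mean in the WT libraries alone. These 15 are listed only through their KO reads, so over both cultures they had to be higher in KO islets, and the counts and the median of the list lean upwards with them. Of the 7 that rose, Knl1, Tpx2 and Kif15 were among them, and Mki67, Top2a, Kif11 and Cenpf were not.

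Mki67 encodes Ki-67, a protein that coats mitotic chromosomes and marks cycling cells. Its normalized counts were 588 and 443 in KO and 156 and 132 in WT libraries (log2 fold change 1.84 with an SE of 0.23 and an FDR of 1.39e-11 in the authors' deposited table). Top2a encodes the topoisomerase that untangles sister DNA molecules, and stood at 396 and 343 in KO and 118 and 115 in WT libraries (log2 fold change 1.67 with an SE of 0.21 and an FDR of 3.04e-11 in the authors' deposited table). For both genes the gap between genotypes was wider than the difference between the female and the male library of 1 genotype.

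Kif11, the kinesin motor that pushes spindle poles apart, stood at 130.0 and 144 in KO and 27.9 and 29.8 in WT libraries (log2 fold change 2.25 with an SE of 0.38 and an FDR of 9.97e-06 in the authors' deposited table). Knl1, a scaffold of the kinetochore by which chromosomes hold on to the spindle, stood at 94.4 and 87.2 against 15.9 and 17.2 (log2 fold change 2.45 with an SE of 0.47 in the authors' deposited table). Cenpf, also of the kinetochore, stood at 122 and 85.03 against 19.9 and 26.4 (log2 fold change 2.15 with an SE of 0.45 in the authors' deposited table). None of these ranges overlapped. Tpx2, which builds the spindle around chromosomes, stood at 82.8 and 57.7 against 17.3 and 19.5 (log2 fold change 1.93 with an SE of 0.48 in the authors' deposited table). Kif15, a kinesin that works beside Kif11, stood at 87.2 and 62.8 against 5.32 and 20.6, where the WT female library was well below the WT male one. Close to the threshold were Prc1, which bundles the midzone of the spindle (log2 fold change 1.47 with an SE of 0.42 and an FDR of 0.0845 in the authors' deposited table), Ckap2l (log2 2.21, FDR 0.0921) and Hmmr (log2 1.92, FDR 0.0973). These 3 were not called.

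**Figure D1:**
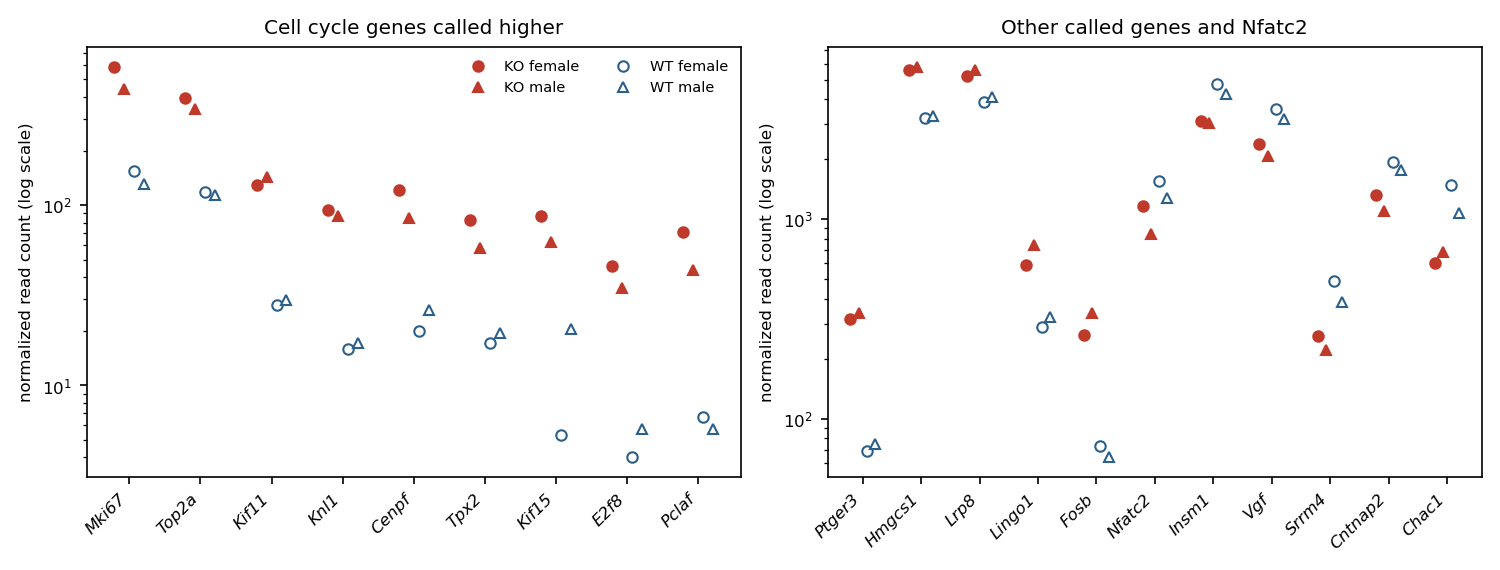
Normalized read counts (reads divided by the library's size factor, log axis) in the 4 untreated libraries, filled red for KO and open blue for WT, circles for females and triangles for males. The left panel holds cell cycle genes called higher in KO islets; the right panel holds other called genes and Nfatc2, where both KO values of Insm1, Vgf, Srrm4, Cntnap2, Chac1 and Nfatc2 sit below both WT values.

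Genes of mitosis are known to share a promoter element, the cell cycle genes homology region (CHR, letters TTTGAA), often with CCAAT boxes upstream of it, through which they are held off outside late cell cycle phases. Promoter windows from RefSeq on GRCm38.p6, 250 bases before to 50 after the start, were matched by symbol for 10786 of the genes tested and for 37 of the 44 mitosis genes. The CHR letters stood on either strand in 29 of the 37 (78.4%) and in 14.2% of all matched genes. CCAAT stood on either strand in 29 of 37 (78.4%) against 42.5%, and both elements in 25 (67.6%) against 7.1%. All 6 of the called mitosis genes with a window held the CHR letters, and 4 of the 6 a CCAAT box as well. The core of NFAT sites, GGAAA, stood on either strand in 22 of 37 mitosis windows (59.5%), in 0 of the 6 called ones and in 63.2% of all windows. It stood in 26 of 42 windows of genes called higher (61.9%) and in 6 of 6 of genes called lower. These are matches of letters, not sites shown to be bound. The 250 bases before the start of 4 called genes are shown because their CHR and CCAAT letters, in capitals for either strand, can be compared. Each is written 5′ to 3′ along the strand of the gene.
Mki67, chr7:135716380-135716629, minus strand: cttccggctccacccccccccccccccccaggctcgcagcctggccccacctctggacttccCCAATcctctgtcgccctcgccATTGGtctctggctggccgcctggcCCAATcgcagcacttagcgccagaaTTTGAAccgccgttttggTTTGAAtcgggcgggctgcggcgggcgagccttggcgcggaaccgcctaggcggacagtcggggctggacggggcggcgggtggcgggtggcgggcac
Top2a, chr11:99024190-99024439, minus strand: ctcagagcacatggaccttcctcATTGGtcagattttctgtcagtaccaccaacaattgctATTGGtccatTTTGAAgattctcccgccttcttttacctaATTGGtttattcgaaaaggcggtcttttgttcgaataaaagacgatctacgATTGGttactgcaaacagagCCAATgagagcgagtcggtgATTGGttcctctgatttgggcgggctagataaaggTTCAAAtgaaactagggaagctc
Kif11, chr19:37376132-37376381, plus strand: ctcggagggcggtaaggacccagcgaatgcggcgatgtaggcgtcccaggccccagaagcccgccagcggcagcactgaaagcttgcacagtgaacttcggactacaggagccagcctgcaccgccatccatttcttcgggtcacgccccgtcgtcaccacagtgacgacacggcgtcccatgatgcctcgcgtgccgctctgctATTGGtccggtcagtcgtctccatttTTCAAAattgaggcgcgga
Kif15, chr9:122950831-122951080, plus strand: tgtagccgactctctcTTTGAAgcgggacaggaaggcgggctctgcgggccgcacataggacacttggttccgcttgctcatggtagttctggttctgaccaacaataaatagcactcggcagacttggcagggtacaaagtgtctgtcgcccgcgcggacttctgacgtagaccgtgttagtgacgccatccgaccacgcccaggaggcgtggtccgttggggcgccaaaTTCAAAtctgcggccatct
The CHR letters nearest the start began 19 bases before it in Kif11 and Kif15, 23 bases before it in Top2a and 98 bases before it in Mki67. Kif15 held no CCAAT in this stretch, Kif11 held 1, Mki67 held 3 and Top2a held 6.

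Other cell cycle genes were called in part. E2f8, a repressor of the E2F family that acts late in S phase, rose, at 46.3 and 34.8 in KO and 3.99 and 5.73 in WT libraries (log2 fold change 3.05 with an SE of 0.80 and an FDR of 0.0386 in the authors' deposited table). Pclaf, which binds the replication clamp PCNA, rose too, at 71.2 and 43.6 against 6.65 and 5.73 (log2 fold change 3.22 with an SE of 0.72 in the authors' deposited table). Both genes were under 23.2 in every WT library of either culture. They too are listed only through their KO reads and had to be higher in KO islets over both cultures. Of 27 measured DNA replication genes 0 were called higher and 0 lower. Their median log2 fold change was 0.32, and 25 were positive. In 21 both KO libraries were above both WT libraries, against 18.6% of all genes. Of the 27, 1 is listed only through its KO reads. Clspn, a checkpoint protein of the replication fork, had the smallest p among them, at 89.9 and 48.8 in KO and 29.2 and 21.8 in WT libraries (log2 fold change 1.44 with an SE of 0.55 and an FDR of 0.457 in the authors' deposited table). Of 19 measured G1 cyclins and CDK inhibitors 0 were called higher and 0 lower, and the median was -0.001. Cdkn1a, the inhibitor p21, stood at 1021 and 1144 against 1199 and 1175 (log2 fold change -0.13 with an SE of 0.15 in the authors' deposited table).

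The gene with the smallest p of the whole comparison was Ptger3 (chromosome 3, 157566892 to 157645888, plus strand, GRCm38). It encodes EP3, a prostaglandin E2 receptor that couples to inhibitory G proteins and is known for restraining insulin secretion. It stood at 315 and 339 in KO and 69.1 and 74.5 in WT libraries (log2 fold change 2.19 with an SE of 0.25 and an FDR of 4.12e-14 in the authors' deposited table). Replicates of 1 genotype lay close together and the genotypes far apart. Of the 12 measured genes of prostaglandin E2 receptors and synthesis it was the only one called, and their median was 0.024 (-0.109 without the WT male to 0.176 without the KO male library). Ptger4, the receptor EP4, which raises cyclic AMP, stood at 115 and 272 in KO and 37.2 and 105 in WT libraries (log2 fold change 1.44 with an SE of 0.59 and an FDR of 0.622 in the authors' deposited table). Its male library was above the female one in both genotypes. Ptgs2, the inducible cyclooxygenase, stood at 98.8 and 57.7 against 152 and 52.7, so its ranges overlapped.

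Hmgcs1 was the third gene by p (chromosome 13, 119690379 to 119708260, plus strand, GRCm38). Its enzyme makes HMG-CoA, the substrate of the rate-limiting step of cholesterol synthesis. It stood at 5599 and 5808 in KO and 3202 and 3269 in WT libraries (log2 fold change 0.82 with an SE of 0.10 and an FDR of 1.68e-11 in the authors' deposited table). The gap between genotypes was far wider than the spread within either one. Of 26 measured cholesterol synthesis genes it was the only one called, and 19 were positive. In 15 both KO libraries were above both WT libraries, against 18.6% of all genes. The median was 0.135 (0.099 without the WT male to 0.217 without the WT female library). Msmo1, a later enzyme of the pathway, stood at 3263 and 3715 against 2446 and 2620 (log2 fold change 0.46 with an SE of 0.14 and an FDR of 0.123 in the authors' deposited table). Stard4, a cholesterol carrier, had a log2 fold change of 0.40 (SE 0.13, FDR 0.2) in the table the authors deposited and was not called. The Hmgcs1 promoter is shown for a match to TCACNCCAC, the letters of a sterol regulatory element, the kind of site by which SREBP factors turn on this pathway. The match began 137 bases before the start and stands in capitals, as do 3 CCAAT matches.
Hmgcs1, chr13:119690101-119690350, plus strand: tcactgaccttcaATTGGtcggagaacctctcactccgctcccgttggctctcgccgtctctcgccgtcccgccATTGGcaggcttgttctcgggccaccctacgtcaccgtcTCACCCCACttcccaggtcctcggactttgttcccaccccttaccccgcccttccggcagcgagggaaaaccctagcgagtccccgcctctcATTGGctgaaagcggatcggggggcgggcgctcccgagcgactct
The same sterol element letters stood on either strand in 1.3% of all windows and in 1 of the 18 cholesterol genes with a window, and CCAAT stood in 16 of those 18 (88.9%).

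Genes called lower included several of neuroendocrine kind. Insm1, a zinc finger factor needed for endocrine differentiation (chromosome 2, 146221921 to 146225020, plus strand, GRCm38), stood at 3097 and 3027 in KO and 4747 and 4256 in WT libraries (log2 fold change -0.56 with an SE of 0.11 and an FDR of 0.00091 in the authors' deposited table). Vgf, a secreted neuropeptide precursor, stood at 2369 and 2070 against 3545 and 3176 (log2 fold change -0.60 with an SE of 0.15 in the authors' deposited table). Srrm4, a splicing factor of neural microexons, stood at 261 and 222 against 490.5 and 383 (log2 fold change -0.85 with an SE of 0.23 in the authors' deposited table). Cntnap2, an adhesion protein of the neurexin family, stood at 1326 and 1093 against 1942 and 1765 (log2 fold change -0.62 with an SE of 0.17 in the authors' deposited table). In all 4 both KO values were below both WT values. They were the calls among 55 measured neuronal genes that the repressor REST holds down outside neurons and endocrine cells, with 0 called higher and a median of -0.036 (-0.102 without the WT male to -0.018 without the KO male library). Over all genes 0.0551% were called lower. Reln, the secreted protein reelin, stood at 13.3 and 26.6 in KO and 117 and 61.9 in WT libraries and missed the threshold (log2 fold change -2.15 with an SE of 0.60 and an FDR of 0.0773 in the authors' deposited table). Lrp8, a receptor for reelin and apolipoprotein E, rose, at 5210 and 5573 against 3860 and 4072 (log2 fold change 0.44 with an SE of 0.12 and an FDR of 0.0463 in the authors' deposited table).

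Chac1, a glutathione-degrading enzyme induced by ATF4, fell, at 601 and 683 in KO and 1476 and 1073 in WT libraries (log2 fold change -0.99 with an SE of 0.23 and an FDR of 0.0094 in the authors' deposited table). Of 39 measured genes of ATF4 and the unfolded protein response it was the only one called. Their median was -0.13 (-0.267 without the KO male to -0.019 without the KO female library), and 10 of them were positive. In 13 both KO libraries were below both WT libraries, against 18.3% of all genes. Atf5, a factor downstream of ATF4, stood at 4133 and 4789 against 5727 and 5732 (log2 fold change -0.36 with an SE of 0.14 and an FDR of 0.504 in the authors' deposited table). Cth, an enzyme that makes cysteine, had the other sign, at 59.6 and 84.3 against 34.6 and 21.8 (log2 fold change 1.36 with an SE of 0.48 and an FDR of 0.325 in the authors' deposited table).

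The other lower calls were of mixed kinds. Prom1, a membrane protein known from duct and progenitor cells, stood at 2588 and 1529 in KO and 5295 and 4276 in WT libraries (log2 fold change -1.22 with an SE of 0.29 and an FDR of 0.0133 in the authors' deposited table). It was the only call of 20 duct markers, whose median was 0.189 (-0.049 without the WT male to 0.278 without the WT female library). Sgcd, a sarcoglycan, stood at 44.5 and 39.2 against 138 and 118 (log2 fold change -1.62 with an SE of 0.34 in the authors' deposited table), and Tmc7, of a family of membrane channels, at 233 and 187 against 392 and 367. Erdr1 had the most negative log2 fold change of the calls (-3.34, SE 0.83, in the deposited table of the authors), with 25.8 and 25.1 in KO and 459 and 57.3 in WT libraries. Its WT female library was far above the WT male one, and the gene lies in a region shared by the sex chromosomes.

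The islet hormones were not called. Group means of Ins1 were 559904 normalized counts in KO and 621091 in WT islets (log2 fold change -0.15 with an SE of 0.09 in the authors' deposited table), and those of Ins2 994393 and 1039157 (log2 fold change -0.06 with an SE of 0.11 in the authors' deposited table). Iapp, the amyloid peptide released with insulin, had a log2 fold change of -0.19 (SE 0.16) and Gcg, glucagon, of -0.05 (SE 0.57) in the same table of the authors. Whole reads could not be read back for these 4, so no library values are given. Ppy, pancreatic polypeptide, stood at 31760 and 29544 in KO and 13514 and 21338 in WT libraries (log2 fold change 0.81 with an SE of 0.24 and an FDR of 0.0942 in the authors' deposited table), and Sst, somatostatin, at 25045 and 16600 against 38200 and 18779, with overlap. Of 24 beta cell markers 0 were called (median -0.08), as of 17 alpha cell markers (-0.115) and 13 markers of delta, PP and epsilon cells (-0.138). Insm1 was the only call of 29 endocrine transcription factors, whose median was -0.112 (-0.194 without the WT male to -0.033 without the KO male library).

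Prolactin-type hormones drive beta cell growth and serotonin synthesis in pregnancy. Of 24 genes of this lactogen and serotonin route 0 were called, 19 were positive, and the median was 0.504 (0.269 without the WT female to 0.721 without the WT male library). Tph1, the serotonin-making hydroxylase of islets, stood at 8558 and 17914 in KO and 1856 and 6920 in WT libraries (log2 fold change 1.59 with an SE of 1.04 and an FDR of 1.00 in the authors' deposited table). Within each genotype the male was above the female, and the KO female lay above the WT male. Matn2, a matrix protein, stood at 7716 and 9283 against 3330 and 5487 (log2 fold change 0.95 with an SE of 0.31 and an FDR of 0.235 in the authors' deposited table). Tph2, the neuronal hydroxylase, stood at 296 and 437 against 173 and 274, and Prlr, the prolactin receptor, at 40984 and 48578 against 30408 and 41588. For these 4 genes the male library was the higher one in both genotypes. In the limma fit with sex the adjusted p was 0.0007 for Tph1, 0.0019 for Matn2, 0.014 for Tph2 and 0.095 for Prlr. The first 3 passed in that fit, which has 1 residual degree of freedom per gene, and not in the limma fit without sex. In 12 of the 24 both KO libraries were above both WT libraries, against 18.6% of all genes.

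Further genes called higher belonged to other groups. Tppp3, a tubulin-binding protein, stood at 355 and 476 against 112 and 103 (log2 fold change 1.95 with an SE of 0.29 and an FDR of 5.6e-08 in the authors' deposited table). Rsph4a, of the radial spoke of motile cilia, stood at 222 and 316 against 29.2 and 87.1, and Mlf1 at 47.2 and 52.5 against 11.96 and 6.88. These were the 3 calls among 22 motile cilium genes, a list put together after these calls were seen, with a median of 0.305. Over all genes 0.355% were called higher. Of the 22, 2 are listed only through their KO reads, Mlf1 among them. Lingo1, a neuronal membrane protein, stood at 591 and 740.1 against 288 and 322 (log2 fold change 1.12 with an SE of 0.19 and an FDR of 9.97e-06 in the authors' deposited table). Fosb, an immediate-early factor, stood at 263 and 339 against 73.1 and 64.2 (log2 fold change 2.13 with an SE of 0.41 in the authors' deposited table) and was the only call of 27 immediate-early genes. Mt2, a metal-binding metallothionein, stood at 5584 and 7019 against 3366 and 3759 and was the only call of 24 oxidative stress genes. Ahnak, a very large scaffold protein, stood at 3218 and 4513 against 1513 and 1137, and Tppp, a relative of Tppp3, at 39.2 and 54.7 against 9.31 and 5.73. Tppp is likewise listed only through its KO reads. Mgst1, a glutathione transferase, stood at 175 and 414 against 39.9 and 71.1. In each of these genes both KO libraries were above both WT libraries.

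Smaller changes in abundant transcripts also passed. Rims3, a presynaptic scaffold protein, Map4, a microtubule-binding protein, Tpm1, a tropomyosin, Foxn3, a forkhead factor, and Dusp18, a phosphatase, had log2 fold changes from 0.41 (Tpm1) to 0.58 (Foxn3) in the deposited table of the authors. Foxn3 stood at 2645 and 2787 in KO and 1690 and 1952 in WT libraries. Rmrp, the RNA of the RNase MRP complex, stood at 40393 and 45220 against 29427 and 30901, and Rn7s2, an RNA of the signal recognition particle, at 4382 and 3652 against 1422 and 2044. Usp2, a deubiquitinase, Diras2, a small GTPase, Mfsd2a, a lipid transporter, and Slc26a3, an anion exchanger, were also higher, with log2 fold changes of 1.36, 0.92, 1.98 and 2.31 in that table of the authors. Ccdc141 (1.35), Fam111a (1.07), Cmah (3.79), Abca8a (2.47), Cpxm1 (3.25) and Gm38211 (1.85) complete the calls outside the groups described here. Slc26a3, Cmah, Abca8a and Cpxm1 averaged under 23.2 in the WT libraries of both cultures and are listed only through their KO reads.

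The largest differences were in antibody genes, made by B cells and plasma cells. Ighm, the constant region of IgM, stood at 17557 and 3983 in KO and 25.3 and 17.2 in WT libraries (log2 fold change 8.99 with an SE of 1.63 and an FDR of 5.55e-05 in the authors' deposited table). Igkc, the kappa constant region, stood at 7936 and 2222 against 7.98 and 10.3. Jchain, which joins IgM into multimers, stood at 2162 and 498 against 3.99 and 0. With 3 WT reads, its ratio was 679 (95% counting interval 232 to 3290, Clopper-Pearson). The KO female library was the highest for each of these 3 genes, and the KO male library was far above WT. Igkc and Jchain averaged under 23.2 in the WT libraries of both cultures. They are listed only through their KO reads and had to be higher there, while Ighm was not so limited.

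Transcription factors and surface proteins of the lineage were called as well. Pou2af1, a B cell coactivator, stood at 144 and 53.97 against 1.33 and 1.15, and Irf4, a factor of plasma cells, at 139 and 51.02 against 1.33 and 3.44. Mzb1, a chaperone of antibody assembly, stood at 104 and 66.5 against 1.33 and 4.58, and Ms4a1, the surface protein CD20, at 33.8 and 19.96 against 2.66 and 0. Iglc1, a lambda constant region, stood at 56.1 and 28.1 in KO libraries and had no WT reads, at least 11.3-fold lower there on a floor of 3 reads per library. On 2 WT reads each, the ratio was 77.1 (95% counting interval 21.1 to 640) for Pou2af1 and 21.3 (5.67 to 180) for Ms4a1. Of 21 genes of B and plasma cells, a list put together after the calls were seen, 8 rose and 0 fell. Over all genes 0.355% rose and 0.0551% fell. Of the 21, 17 averaged under 23.2 in the WT libraries and are in the tables only through their KO reads, so they had to be higher there and no median is given. Of the 8 that rose, all but Ighm were among these 17. The summed level of the 21 genes was 0.159% and 0.051% of the reads in KO and 0.00651% and 0.00775% in WT libraries.

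The tables hold 16 immunoglobulin variable segments, all at 0 reads in both untreated WT libraries. All 16 are listed only through their KO reads, and segments low in both groups are not seen. Related segments resemble each other in sequence, and the treatment of reads matching more than 1 is unknown, so the split between them is uncertain. Igkv14-126 stood at 3198 and 744 in KO libraries, at least 531-fold above a floor of 3 reads per WT library, and was called. Ighv11-2 stood at 1908 and 459.9, at least 319-fold above that floor, and was not called. These segments are known to recur together in mouse B-1 cells, B cells that are plentiful in the body cavities. Ighv12-3 stood at 145 and 0 and Igkv4-91 at 272 and 0, another pair known from B-1 cells. Ighv1-11, which was called, stood at 678 and 0 and was the only call whose groups overlapped. Ighg2b, a heavy chain constant region of IgG, stood at 22.2 and 1423 against 0 and 0, and Ighg3, another, at 1057 and 37.7 against 0 and 0. Each of the 2 KO mice was thus the high one for some of these genes. The segments and constant regions of IgG were chosen for naming after their values were seen.

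Few markers of other islet cells were called, and in bulk RNA fewer cells of a type and less RNA per cell cannot be told apart. Of 21 macrophage markers 1 rose, against 0.355% of all genes. The marker called was Lyz2, the lysozyme of macrophages, at 755 and 590.0 in KO and 254 and 389.7 in WT libraries (log2 fold change 1.06 with an SE of 0.28 and an FDR of 0.0408 in the authors' deposited table). 21 of 21 were positive, with a median of 0.494 (0.437 without the WT female to 0.753 without the WT male library). In 17 both KO libraries were above both WT libraries, against 18.6% of all genes. Csf1r, the receptor for the macrophage growth factor, stood at 312 and 305 against 182 and 182 (log2 fold change 0.76 with an SE of 0.21 and an FDR of 0.0791 in the authors' deposited table). Cybb, a phagocyte oxidase subunit, and Clec7a, the beta-glucan receptor of myeloid cells, were called outside the list, at 156 and 126 against 49.2 and 56.2 and at 142 and 87.98 against 27.9 and 43.5.

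Against 0.355% of all genes, 2 of 24 stromal markers rose. They were Col5a2, a fibrillar collagen chain, at 1530 and 1475 in KO and 417 and 527 in WT libraries (log2 fold change 1.67 with an SE of 0.30 and an FDR of 4.07e-05 in the authors' deposited table), and Dcn, the proteoglycan decorin, at 304 and 203 against 43.9 and 55.01 (log2 fold change 2.36 with an SE of 0.54 in the authors' deposited table). The median was 1.51 and 21 were positive, and the median without the KO female library was 0.732. Of the 24 markers 2 are listed only through their KO reads. Col6a2, another collagen chain, stood at 631 and 293 against 139.6 and 101 (log2 fold change 1.94 with an SE of 0.56 and an FDR of 0.0936 in the authors' deposited table). Outside the list Lox, which crosslinks collagen, was called at 222 and 112 against 35.9 and 16.1, Postn, a matrix protein, at 503 and 265 against 82.4 and 131, and Igf1, a growth factor, at 189 and 114 against 22.6 and 22.9. Cyp1b1, a cytochrome P450, was called at 429 and 143 against 6.65 and 4.58, and Vip, a neuropeptide, at 698 and 174 against 63.8 and 65.3. The KO female was the highest library for each of these 5 genes. The summed stromal level was 0.118% and 0.0635% of the reads in KO and 0.0383% and 0.0343% in WT libraries.

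Endothelial markers lay on the other side. Of 22 measured, 0 were called lower and 0 higher, 2 were positive, and the median was -0.34. In 18 both KO libraries were below both WT libraries, against 18.3% of all genes. Flt1, a VEGF receptor, stood at 1550 and 1377 in KO and 1901 and 2209 in WT libraries (log2 fold change -0.49 with an SE of 0.14 and an FDR of 0.0665 in the authors' deposited table), and Kdr, the main VEGF receptor, at 1296 and 1006 against 1712 and 2186 (log2 fold change -0.76 with an SE of 0.22 and an FDR of 0.112 in the authors' deposited table). Their summed level was 0.0552% and 0.0482% of the reads in KO and 0.0669% and 0.0766% in WT libraries. Acinar markers, genes of the enzyme-secreting tissue around islets, were 0.547% and 0.237% of the reads in KO and 0.458% and 0.0674% in WT libraries. Of 27 acinar markers 0 were called, 25 were positive, and the median was 0.46, or -0.432 without the WT male library, which was the low one. The acinar levels of the untreated KO and WT libraries overlapped, while the stromal and endothelial levels separated the genotypes. The B cell level did too, but 17 of its 21 genes are listed only through their KO reads and had to be higher there. With cytokines the stromal level did not separate the genotypes, at 0.1318% in the WT female and 0.06208% in the KO male library. The part of these levels in the other called genes was not tested.

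**Figure D2:**
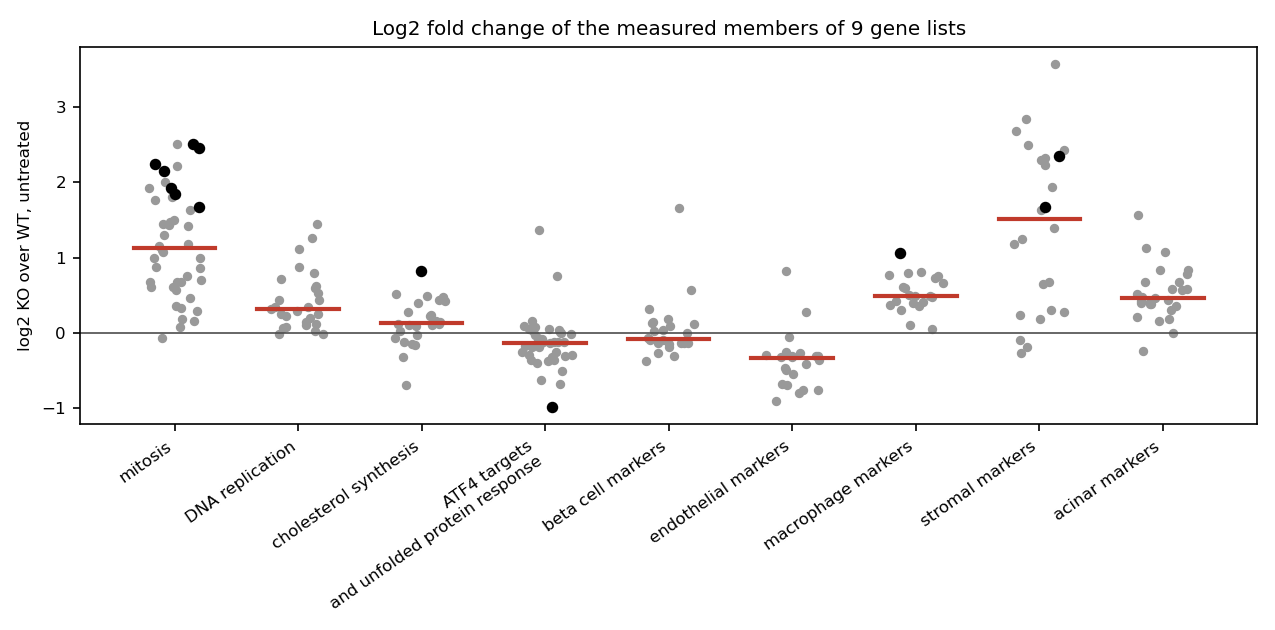
Log2 fold change of KO over WT in untreated islets for each measured member of 9 gene lists, from the authors' deposited table; black points are called genes, grey points are not, and red bars are list medians. The mitosis, macrophage and stromal points lie mostly above 0 and the endothelial points mostly below, while beta cell markers lie around a median of -0.08.

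**Figure D3:**
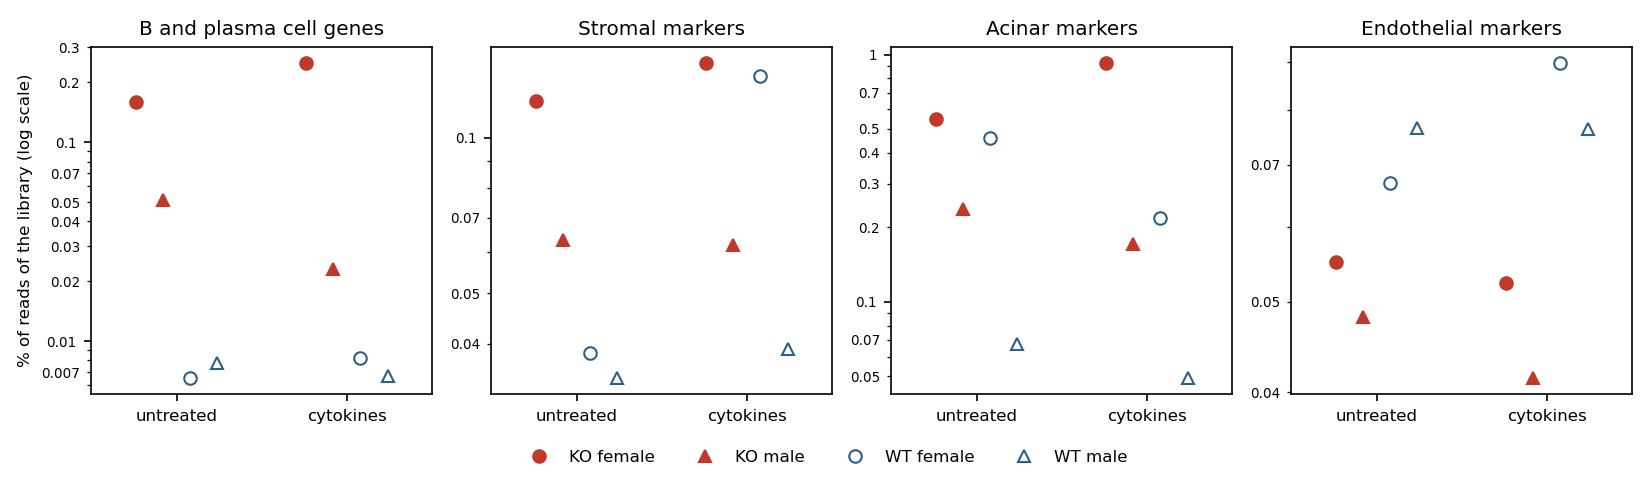
Share of each library's recovered reads, in percent on log axes, that fell on B and plasma cell genes, stromal, acinar and endothelial markers, in the untreated and the cytokine culture of each mouse. Both KO mice lie above both WT mice for the B and plasma cell genes and below them for the endothelial markers in both cultures. Of the 21 B and plasma cell genes 17 are listed only through their KO reads. The stromal level of the WT female was 0.0383% untreated and 0.132% with cytokines, where it was above the 0.0621% of the KO male.

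The cytokine cultures of the same 4 mice gave a second measurement of the genotype difference. There the authors called 163 genes (0.998%), 133 higher (0.814%) and 30 lower (0.184%). All 67 genes called in untreated islets kept their direction, and 47 were called in both, 43 higher and 4 lower. These are 70.1% of the untreated calls and 28.8% of the cytokine calls. The mice are shared, so the second culture repeats the culture and the library and not the animals.

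With cytokines Ptger3 had a log2 fold change of 2.11, Hmgcs1 of 0.73, Mki67 of 1.96, Top2a of 1.95 and Insm1 of -0.45, and each was called again in the authors' deposited table. Of the mitosis list 12 were called higher with cytokines, all 44 were positive, and the median was 1.19. Genes called untreated only included Vgf (log2 -0.37 with cytokines), Chac1 (-0.68), Srrm4 (-0.69), Cntnap2 (-0.56) and Rmrp (0.39), each on the same side of 0 as before.

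Whether the genotype difference itself depended on the culture was fitted in limma over all 8 libraries with the mouse as a block. It called 0 genes, with a smallest adjusted p of 0.194 and 660 genes at an unadjusted p below 0.05. Among the 67 calls the smallest adjusted p was 0.376, for Lox. Lox had a log2 fold change of 2.69 (SE 0.70) untreated and 0.30 with cytokines in the authors' deposited table. Cyp1b1 had 5.67 (SE 1.48) and 2.75, and Col5a2 1.67 (SE 0.30) and 0.83, in that table of the authors. The stromal median was 1.51 untreated and 0.448 with cytokines, where 0 of the 24 markers were called. Of the 22 endothelial markers 9 were called lower with cytokines, among them Flt1 (-0.77) and Kdr (-1.08), and the median was -0.766. Of 12 lymphocyte markers 10 were called higher with cytokines and 3 untreated, Igkc, Ighm and Ms4a1, and 7 of the 12 are in the tables only through their KO reads. The fit over both cultures tested single genes only, and the differences between these list medians and counts were not tested.

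**Figure D4:**
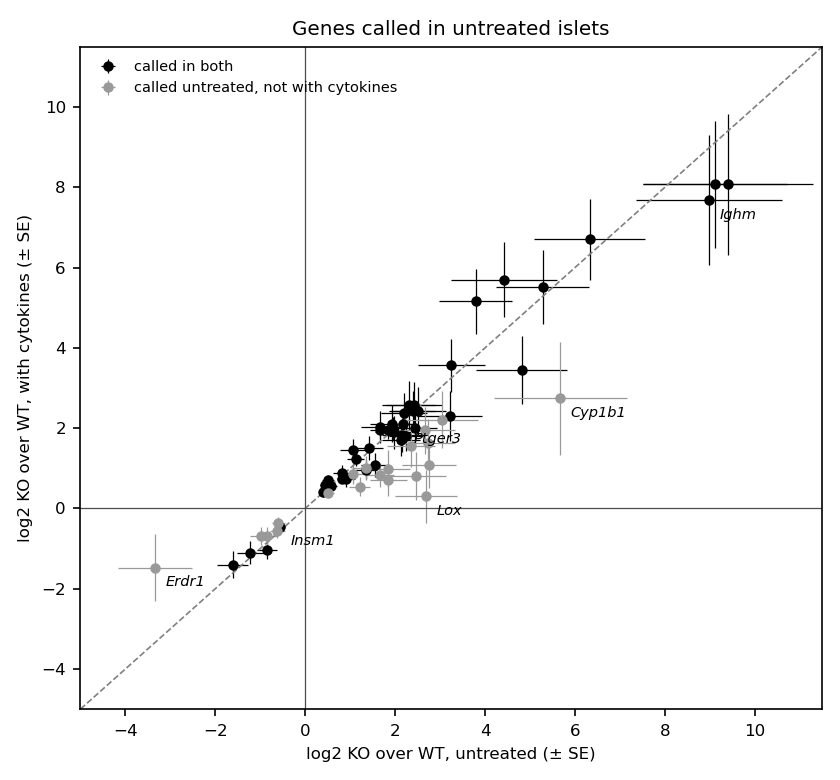
Log2 fold change of KO over WT with cytokines against the same in untreated islets for 64 of the 67 genes called in untreated islets, with standard errors from the authors' deposited tables; 3 immunoglobulin genes without WT reads are left out, and the dashed line marks equal values. All 64 points lie in the quadrants of equal sign; black points (44) were called in both cultures.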

How the data were processed

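RNA was sequenced from islets of 4 mice, each in an untreated and a cytokine culture. HISAT2, HTSeq, DESeq2 and GRCm38 are named in the submitters' processing notes, with neither versions nor roles. Strand is not recorded, so overlapping genes on opposite strands cannot be separated. Before deposit the authors turned reads into signal values, which are group means of counts after division by a library size factor. Genes with a mean over all libraries under 23.2 are not in these tables. Members listed only through their KO reads also numbered 2 in the calcineurin and NFAT list, 1 in the lactogen list and 1 in the ion channel list. Of the genes held down by REST, 1 is listed only through its WT reads. Each log2 fold change was deposited by the authors with a score, its Wald statistic, and the standard error is the quotient of both. The p-value deposited by the authors is two-sided, and their FDR is its Benjamini-Hochberg adjustment. Per-sample columns left unused numbered 0.

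A group mean is a sum of 2 whole read counts, each times a fixed step, from which reads were recovered for 16319 of 16333 genes (99.914%), and on simulated means for 16318 of 16319. Libraries carry no replicate number and were named by sex from Y-linked genes. Limma 3.58.1 (R 4.3.3) was fitted to log2(normalized count + 1). On simulated reads of 16319 genes it called 24 of 50 genes changed 1.5-fold and 45 of 50 changed 2-fold. Among unchanged genes it called 9. The simulation gave every gene the same low spread and held no difference between sexes or mice. It therefore cannot tell how many changes the fit would find in the real libraries. Shares of reads leave out the 14 genes not recovered, insulin among them. Intervals and floors (3 reads per library) cover counting error only, and limma p-values of the 4 untreated libraries measure the spread between these mice. Which libraries set the spread behind the authors' p-values is not stated. Their standard errors were nearly equal untreated and with cytokines (Hmgcs1 0.104 and 0.103, Lingo1 0.192 and 0.191). If all 8 libraries were used, both cultures of a mouse counted as separate samples, and those p-values would not measure the spread between mice alone.

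Members and lists were chosen with earlier results of these data known. Named were Nfatc2, the called genes, in each list the called members and up to 3 others with the smallest p, and the hormone genes, Prlr, Tph1, Tph2, Ptger3, Hmgcs1, Insm1 and Cdkn1a. Ptgs2, Ighg2b, Ighg3 and the uncalled variable segments fall outside this rule and were added after their values were seen. Gene positions come from GENCODE on GRCm38.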

Additional observations from a re-analysis of the deposited data

How the results depend on the processing

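At an FDR below 0.01 the authors' table held 39 calls untreated in place of 67, and 93 with cytokines in place of 163. Below 0.1 it held 100 and 231, and adjusting only over genes with a mean of at least 50 gave 54 untreated. The cytokine alternatives were chosen after seeing the data. Limma-trend on the recovered reads called 0 genes in both cultures, with 1132 unadjusted p-values below 0.05 untreated and 849 with cytokines (smallest adjusted p 0.119 and 0.221). The untreated count was also 0 with a pseudocount of 5, with scaling to library totals, with genes of a mean of at least 50 and with voom. It became 2 with all 8 libraries, 2 with the mouse as a random block and 691 with sex as a covariate, where 54 named genes that the authors did not call also passed. Leaving out 1 library in turn gave 0 to 7 calls, 7 without the KO female and 4 without the KO male library, where the lone sample of an arm is assumed to vary like the others. The cause was not tested. All 67 authors' calls kept their direction in the limma fit of 4 libraries, which uses the same reads, and none passed its threshold. Without the KO female library Ighv1-11 has 0 reads in every library left, and the stromal median fell from 1.51 to 0.732. The acinar median ranged from -0.432 without the WT male to 2.57 without the WT female library, and the mitosis median from 0.94 to 1.28. Medians of the beta cell list (-0.106 to 0.083), the alpha cell list (-0.501 to 0.24) and the list of delta, PP and epsilon cells (-0.5 to 0.235) took both signs across these fits. No paired analysis was possible because the recovered libraries carry no replicate number, that is none by the numbers of the labels. The mouse block pairs the 2 cultures of a mouse, and the sex covariate sets the 2 females and the 2 males of the genotypes against each other. Folds of antibody genes are limited by their few WT reads.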

Other observations

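Some lists not described above held 0 calls. Of 25 genes that beta cells keep at a low level 22 had a positive log2 fold change, with a median of 0.448 (0.21 without the KO female to 0.656 without the KO male library). Maf, a transcription factor of that list, stood at 142 and 101 in KO and 27.9 and 48.1 in WT libraries, in normalized counts of the female and the male library (log2 fold change 1.67 with an SE of 0.54 and an FDR of 0.217 in the authors' deposited table). Of 28 ion channel genes 9 were positive, with a median of -0.103 (-0.248 without the KO female to 0.008 without the KO male library). Trpm2, a calcium-permeable channel, stood at 506 and 448 against 295 and 304 (log2 fold change 0.67 with an SE of 0.18 and an FDR of 0.06 in the authors' deposited table). In neither gene did KO and WT libraries overlap. Within 20 Mb on each side of Nfatc2 lay 326 tested genes, of which 1 was called, Tpx2. Over all 16333 genes tested 67 were called (0.41%). With 1 call in the window the count is too small to compare closely with that share, and an excess near Nfatc2 was not tested. Insm1, also called and on chromosome 2, starts at 146221921, outside the window.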
